A study of Mus musculus with 6 samples.

Results

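Histone genes of the replication-dependent clusters were followed in 6 droplet libraries of mouse kidney and mammary tumor, through the 67 gene symbols that start with Hist1h, Hist2h, Hist3h or Hist4h. The 63 symbols with at least 10 UMIs (unique molecular identifiers, counts of captured RNA molecules) over both matrices were kept as members, out of 31053 genes in the tables. The 4 symbols left out were Hist1h2ah with 7 UMIs, Hist1h2bq with 2, and Hist1h2ba and Hist1h2aa with 0. The members with the fewest UMIs were Hist1h3h with 21, Hist2h2aa2 with 35 and Hist1h4m with 36. The UMI totals chose the members, and the contrasts of cycling with other cells and of shallow with deep cells were named in the same choice, so levels in those contrasts are given as a description.

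Kidneys came from 12-week-old male C57BL/6 mice, and mammary tumors from 10-week-old female MMTV-PyMT mice. In MMTV-PyMT mice a mouse mammary tumor virus promoter drives the polyoma middle T oncogene in mammary epithelium. Each tissue was minced and dissociated with type I collagenase. Control 60 min was a conventional 60 min digestion. In a microfluidic platform, cells were collected at 15 min (platform 15 min) and at 60 min (platform 60 min). The paper describes these as intervals, in which cells were eluted, collagenase was replaced and the remaining tissue was processed further. Platform 60 min was thus collected after the platform 15 min cells had been removed, whereas the control was a whole digestion. In all 6 groups erythrocytes were lysed, DNase I was added, dead cells were removed by sorting for SytoxBlue-negative cells, and 3′ tag libraries were made. Each group was 1 library, so no difference between groups has a replicate check, and intervals printed below are exact Poisson or exact binomial 95% intervals that cover counting error only. Tissue, age, sex and genotype changed together, and the strain background of the MMTV-PyMT mice is not stated. The kidney and tumor matrices were also depth-equalised separately. Levels in kidney and tumor are therefore given side by side and were not tested against each other.

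Core histones H2A, H2B, H3 and H4 form the octamer around which DNA is wrapped, and the linker histone H1 sits where DNA enters and leaves it. Most histone genes lie in clusters and are transcribed during DNA replication. Their mRNAs usually lack introns and end just past a conserved stem-loop in place of a poly(A) tail, and the stem-loop-binding protein holds that end. Some of these genes also make transcripts that read past the stem-loop to a poly(A) signal, which persist in cells that no longer divide. The libraries were primed on poly(A), so an mRNA that ends at a stem-loop is counted only as far as it was primed some other way. How much of each gene's mRNA ended at either site was not measured here.

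All 63 members had a gene in the GENCODE M21 annotation of GRCm38. On chromosome 13, 50 members lay between 21715763 and 23764406, 10 lay on chromosome 3 between 96219865 and 96270132, 2 on chromosome 11 and 1 on chromosome 6. The annotated transcripts of 44 members held the stem-loop letters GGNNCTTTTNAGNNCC on the sense strand, where N is any base, as did 78 of 21951 protein-coding genes (0.355%). The most frequent form was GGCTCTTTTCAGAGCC in 26 members of H1, H2A, H2B and H3, and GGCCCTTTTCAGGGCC was held by 7 H4 members. Representative windows are printed as sense-strand DNA with the stem-loop in capitals, because the length of transcript past this element differs between the members described below.
Hist1h2ap (H2A), chr13:21833029-21833044, minus strand, 3 bases to the annotated end: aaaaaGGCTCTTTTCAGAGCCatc
Hist1h1c (H1), chr13:23739512-23739527, plus strand, 840 bases to the end: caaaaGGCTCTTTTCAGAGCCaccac
Hist1h4d (H4), chr13:23581950-23581965, plus strand, 770 bases to the end: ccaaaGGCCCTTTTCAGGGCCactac
Hist1h4i (H4), chr13:22040966-22040981, minus strand, 330 bases to the end: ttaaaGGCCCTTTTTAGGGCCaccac
Hist1h3e (H3), chr13:23561903-23561918, minus strand, 369 bases to the end: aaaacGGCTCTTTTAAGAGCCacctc
Hist2h2ac (H2A), chr3:96220418-96220433, minus strand, 57 bases to the end: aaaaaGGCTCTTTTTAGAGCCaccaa
The form of Hist1h4i was held by 2 members, both H4, that of Hist1h3e by 6 members of H1, H2B and H3, and that of Hist2h2ac by that gene alone. In 22 members the transcript ended under 100 bases past the stem-loop, in 22 it ran at least 100 bases past it, and in 19 no annotated transcript held the letters. Of those 19, 12 had at most 5 annotated bases from the stop codon on, so the genomic sequence after the coding end was outside what was searched. Hist1h2bc, an H2B gene at chr13:23684199-23692908 on the plus strand, was among the 19, and its annotated transcript has 2 exons.

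Promoter sequences of the 200 bases before the RefSeq start (GRCm38) are shown for an H2A member, the linker histones Hist1h1b and Hist1h1c and the H4 member Hist1h4i, since the first pair and the second pair differ in cycling cells. Capitals mark the CCAAT box letters, searched on both strands so that the reverse complement ATTGG counts too. They also mark the TATA box letters TATAAA, the octamer ATTTGCAT and the H1-box letters AAACACA on either strand.
Hist1h2ap, chr13:21833476-21833675, minus strand: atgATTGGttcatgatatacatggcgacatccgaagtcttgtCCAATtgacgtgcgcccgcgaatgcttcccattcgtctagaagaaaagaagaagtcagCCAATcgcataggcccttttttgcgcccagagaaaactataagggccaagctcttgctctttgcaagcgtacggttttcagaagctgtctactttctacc
Hist1h1b, chr13:21780626-21780825, minus strand: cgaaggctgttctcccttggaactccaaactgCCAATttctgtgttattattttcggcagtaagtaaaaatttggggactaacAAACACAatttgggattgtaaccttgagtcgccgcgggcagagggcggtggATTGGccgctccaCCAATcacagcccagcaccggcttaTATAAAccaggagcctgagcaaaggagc
Hist1h1c, chr13:23738607-23738806, plus strand: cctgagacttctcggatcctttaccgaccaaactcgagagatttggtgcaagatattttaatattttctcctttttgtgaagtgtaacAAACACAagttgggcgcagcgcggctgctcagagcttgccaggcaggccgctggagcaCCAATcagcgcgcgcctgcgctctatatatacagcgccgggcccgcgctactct
Hist1h4i, chr13:22041363-22041562, minus strand: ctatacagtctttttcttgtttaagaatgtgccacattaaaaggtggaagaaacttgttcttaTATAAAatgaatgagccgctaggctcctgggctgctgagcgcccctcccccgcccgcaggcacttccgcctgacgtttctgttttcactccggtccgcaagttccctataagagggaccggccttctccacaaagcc
In the full 250 bases before the start, the 58 members with a RefSeq promoter held CCAAT in 47 cases (81.0%), against 33.8% of all 32851 promoters. TATAAA was present in 27 (46.6%, against 12.4%). The octamer was present in 10, of which 5 were H2A and 5 were H2B members (17.2%, against 1.60%). AAACACA was present in 7, and 5 of these were among the 6 H1 members (12.1%, against 6.25%). CCAAT was found before all H1, H2A and H2B members that matched and before 3 of 12 H4 members.

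H2B carried 51.9% of the 471091 UMIs of the members, H1 21.9%, H4 12.2%, H2A 11.9% and H3 2.11%. Hist1h2bc alone held 49.4%, and with the linker histone gene Hist1h1c 64.4%. The 25 members with the most UMIs, from 232659 down to 1217, held 97.2% and are named below with values, and the 38 others held at most 1189 UMIs each. The sequences of these genes are not always unique to 1 locus. In 31 members, 6 of them named, at least 50% of the 50-base words of the last 300 transcript bases occurred in another gene too. Every such word of Hist1h2ap also occurred in another gene such as Hist1h2ao, every word of Hist1h1e in the overlapping Hist1h2be or Gm11398, and 46.2% of the words of Hist1h2ak in another H2A gene. Levels of Hist1h2ap, Hist1h1e, Hist2h2aa1, Hist2h3c1, Hist1h3e, Hist1h4h and Hist1h2ak are therefore uncertain as levels of those loci, and they are given as counted by the authors.

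Cells with at least 200 detected genes were analysed, 32888 in kidney and 23912 in tumor. The libraries held 69691783 to 116998401 UMIs, and the median cell had 5654 to 8412 UMIs in kidney and 8577 to 10525 in tumor. Mitochondrial UMIs made up 12.7% to 19.1% of a kidney library and 7.90% to 8.99% of a tumor library. Barcodes that occurred in more than 1 library of a tissue belonged to 1.94% of kidney cells and 0.473% of tumor cells. Cells were assigned to types by the markers of each type that had a UMI, and 2.33% to 11.2% of the cells of a library stayed unassigned. The proximal tubule gate, defined by Slc34a1, Lrp2, Slc5a2, Slc22a6 and Slc27a2, held 52.5%, 86.7% and 36.3% of kidney cells in control 60 min, platform 15 min and platform 60 min. The tumor epithelial gate, defined by Epcam, Krt8, Krt18, Cldn3 and Cldn7, held 66.1%, 72.0% and 44.8% of tumor cells. In both gates the summed level of the own markers was at least 4317 UMIs per 1000000 UMIs and that of any other list at most 297.7.

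Levels are given in CPM, the UMIs of a gene per 1000000 UMIs of the same library or gate. In a sum over a whole library, fewer cells of a type and less RNA per cell cannot be told apart. The summed histone level in kidney was 1070 CPM (95% interval 1062 to 1077) in control 60 min, 896.2 in platform 15 min and 983.8 in platform 60 min. Without Hist1h2bc the order changed, with 340.8, 247.1 and 460.7 CPM. In tumor the sum was 590.3 (585.3 to 595.3), 788.3 and 539.0 CPM, and without Hist1h2bc 412.3, 585.3 and 402.3. Platform 15 min held the lowest sum of the 3 kidney libraries and the highest of the 3 tumor libraries, with or without that gene. Under the cell limits of the study, which drop kidney cells with over 3000 genes or over 50% mitochondrial UMIs, the kidney order turned, with 936.1, 892.6 and 869.8 CPM, so that platform 60 min was lowest.

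Hist1h2bc stood at 728.8, 649.1 and 523.1 CPM in the 3 kidney libraries and at 177.9, 203.0 and 136.7 in the 3 tumor libraries. It was the highest member in every library. Hist1h1c, a linker histone gene, followed with 112.5, 93.25 and 111.8 CPM in kidney and 137.4, 182.8 and 93.64 in tumor. Hist1h4i, Hist3h2a, Hist1h1e, Hist1h4d and Hist1h4h held between 10.35 and 58.63 CPM in each of the 6 libraries. The H3 members were lowest as a family, with a summed 7.292 to 16.18 CPM in kidney and 19.61 to 26.63 in tumor.

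A second set of members spread far more between kidney libraries. Hist1h2ap, an H2A gene, was at 7.623 CPM in control 60 min, 1.829 in platform 15 min and 50.40 in platform 60 min of kidney, and at 12.54, 23.15 and 28.49 in tumor. Hist1h2ae, also H2A, was at 6.774, 0.8886 and 16.29 in kidney and at 14.01, 23.68 and 22.59 in tumor. Hist1h1b, a linker histone gene, was at 6.496, 0.9234 and 10.07 in kidney and at 14.91, 24.01 and 20.10 in tumor. All 3 genes were lowest in the kidney platform 15 min library. Hist1h2ak, an H2A gene whose level was near that of Hist1h2ap in the tumor at 10.48, 19.91 and 21.47 CPM, was at 0.4536, 0.08712 and 0.4293 in kidney and lay below Hist1h2ap in each of these libraries.

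**Figure D1:**
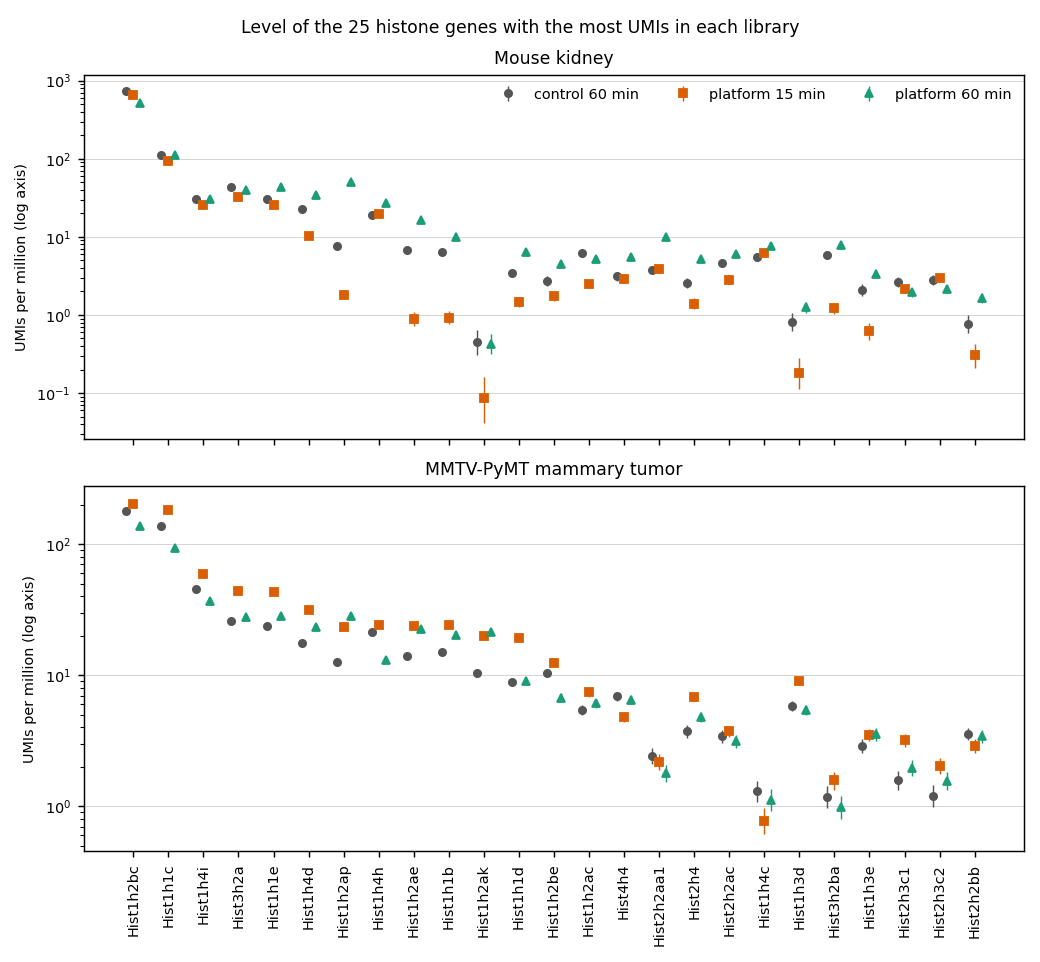
Level of the 25 histone genes with the most UMIs in each library, kidney above and tumor below, as CPM on a log axis. Points mark the library and bars the 95% Poisson interval, which covers counting error only. Hist1h2bc is the highest gene in each panel, and Hist1h2ap runs from 1.829 to 50.40 in kidney.

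The UMIs of these members were spread over very different numbers of cells. For Hist1h2bc, 50% of the UMIs lay in 908 of 7888, 2248 of 11521 and 1127 of 13479 kidney cells of control 60 min, platform 15 min and platform 60 min. For Hist1h2ap, the same share lay in 9, 19 and 18 cells of these libraries, and the cell with the most UMIs held 53, 30 and 291 of them. For Hist1h1b it lay in 7, 4 and 18 cells. In tumor 50% of the Hist1h2ap UMIs lay in 60 of 7913, 58 of 8025 and 68 of 7974 cells, and 50% of those of Hist1h2bc in 521, 629 and 422. Kidney levels of Hist1h2ap, Hist1h2ae and Hist1h1b thus rested on few cells, and a Poisson interval does not cover which cells were loaded.

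**Figure D2:**
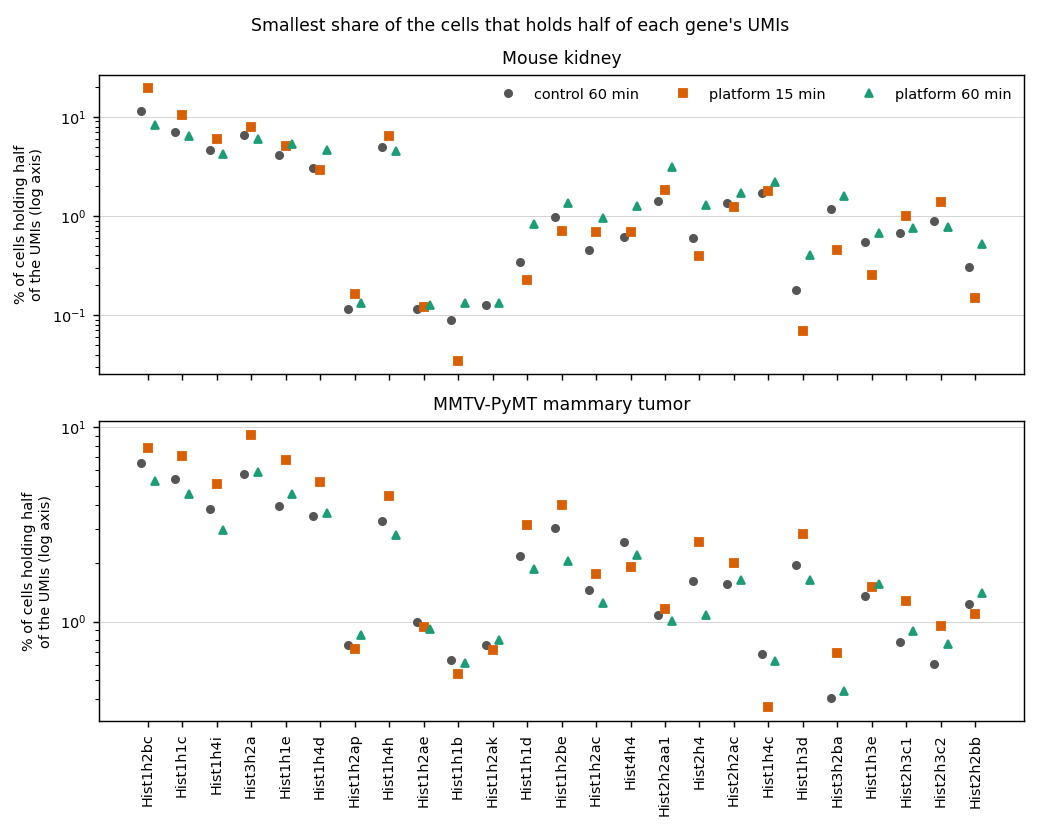
Smallest share of the cells of a library that holds 50% of each named gene's UMIs, in percent on a log axis, for kidney above and tumor below. Only libraries in which the gene had at least 20 UMIs are shown. Hist1h2ap, Hist1h2ae, Hist1h1b and Hist1h2ak sit low in kidney, with 50% of the UMIs in 4 to 19 cells, for Hist1h2ak out of 31 and 48 UMIs in all, and Hist1h3d of platform 15 min, with 21 UMIs in all, sits at 8 cells.

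By cell type, Hist1h2bc was highest in the proximal tubule gate, with 978.7 (969.6 to 987.9), 684.9 and 803.1 CPM in the 3 kidney libraries. Kidney granulocytes, gated by S100a8, S100a9, Csf3r, Retnlg and Cxcr2, came next with 417.4 (285.5 to 589.2) CPM in control 60 min and 613.4 in platform 60 min. Kidney dendritic cells held the least, 34.26 and 58.88 CPM in the same libraries. In the tumor, granulocytes held 387.1, 610.1 and 499.6 CPM and epithelial cells 228.9, 243.6 and 229.1. The other tumor types with at least 20 cells lay between 0 and 83.58 CPM. The order of granulocytes, epithelial cells and all other types was the same in the 3 tumor libraries, and the intervals of granulocytes and epithelial cells did not overlap in any of them.

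As a reading of RNA from other cells, Kap and Miox were summed, which proximal tubule cells make in large amounts. Their summed level was 31882 to 59530 CPM in the proximal tubule gate and 265.9 to 13560 in the other kidney gates, and its part in the Hist1h2bc levels of those gates was not tested. The proximal tubule gate was highest for both in each library. Among the other gates of platform 60 min, granulocytes were highest for both, with 7601 CPM of Kap and Miox and 613.4 of Hist1h2bc. In control 60 min, granulocytes held 2243 and 417.4 CPM, intercalated cells 517.1 and 312.8, and macrophages 2801 and 120.7.

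Hist1h1c was less uneven between types. Kidney types ranged from 32.07 CPM of Hist1h1c in stromal cells of control 60 min to 521.7 (372.7 to 710.5) in granulocytes of that library. Proximal tubule cells were at 111.9, 91.47 and 97.87, and tumor epithelial cells at 170.1, 215.3 and 149.7. Hist1h1e, a further linker histone gene, was highest in kidney NK cells, at 280.1, 338.5 and 320.7 CPM, and in B lymphocytes, at 227.5, 211.7 and 197.5, whereas proximal tubule cells held 18.58, 21.16 and 27.20. Hist1h4i, an H4 gene, was at 36.65, 26.92 and 37.48 CPM in the proximal tubule and at most 5.364 in the thick ascending limb, distal convoluted tubule, collecting duct principal and intercalated gates. In tumor Hist1h4i was at 58.35, 70.49 and 64.87 in epithelial cells and at 109.1 (85.17 to 137.6), 200.6 and 128.1 in granulocytes.

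Hist1h2ap showed another order of types. Kidney T lymphocytes held 128.8, 15.31 and 770.7 (740.5 to 801.8) CPM in control 60 min, platform 15 min and platform 60 min, and dendritic cells 47.66 and 406.4 in control 60 min and platform 60 min. B lymphocytes held 45.34, 55.96 and 177.8. Proximal tubule cells held 0.3560, 0.3679 and 5.269. Hist1h2ap had 0 UMIs in kidney granulocytes, which at their depth allows up to 39.1 CPM in control 60 min and 18.0 in platform 60 min at 3 counts. In the tumor T lymphocytes were highest in control 60 min and platform 15 min, at 71.18 and 80.57 CPM, and epithelial cells held 9.588, 20.63 and 26.48. Tumor granulocytes, the highest tumor type for Hist1h2bc, held 1, 0 and 2 Hist1h2ap UMIs.

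**Figure D3:**
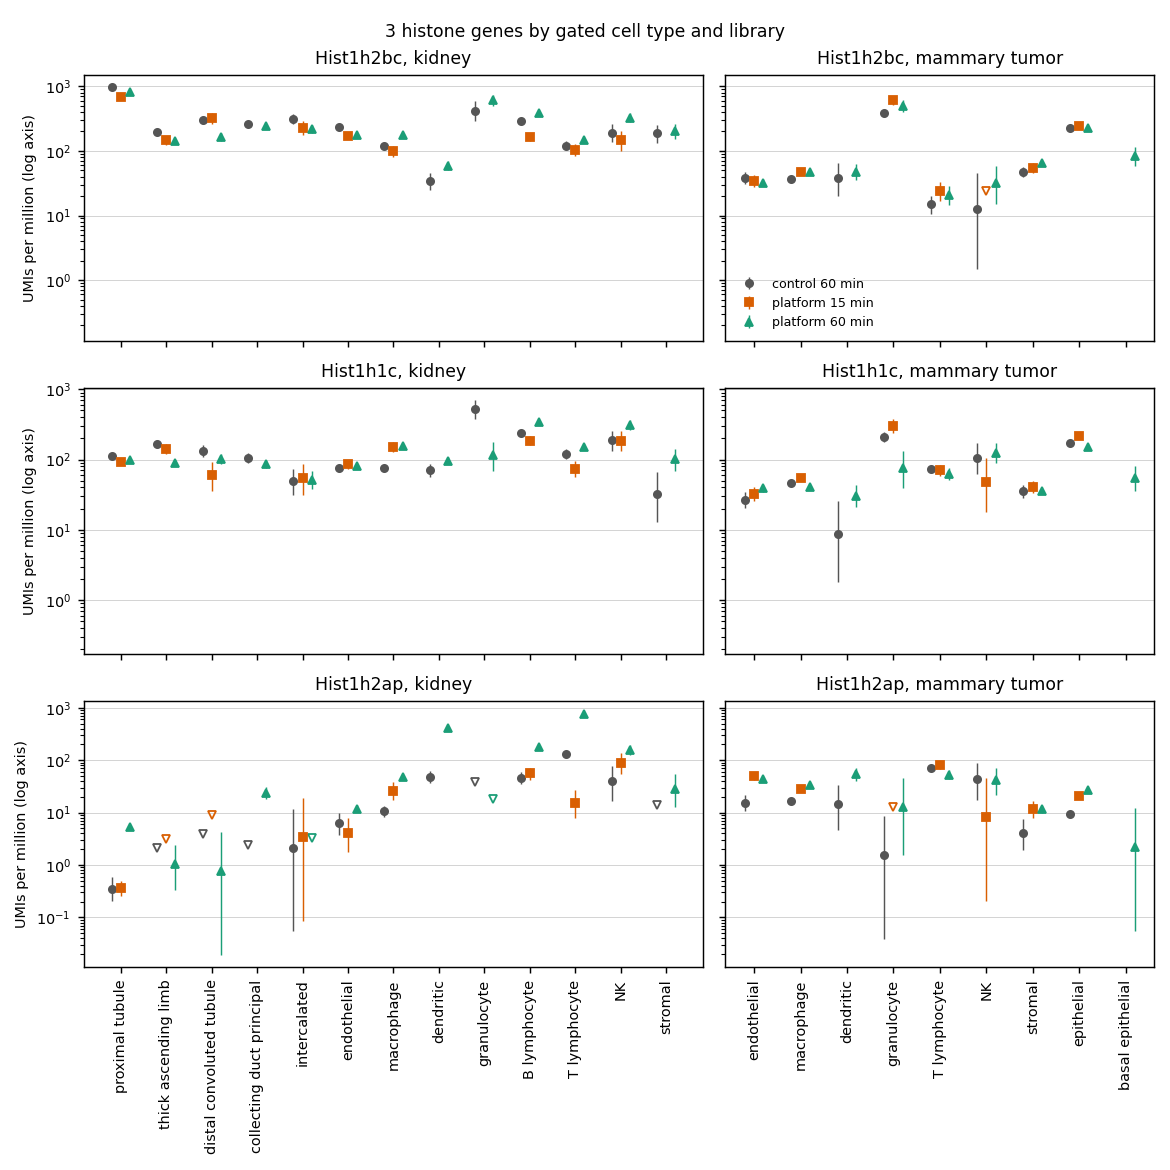
Level of Hist1h2bc, Hist1h1c and Hist1h2ap in each gated cell type with at least 20 cells, kidney at left and tumor at right, as CPM on a log axis with 95% Poisson intervals. Open triangles pointing down mark 0 UMIs, drawn at the level of 3 counts. Hist1h2bc is highest in the proximal tubule at 684.9 to 978.7, and Hist1h2ap in T lymphocytes of kidney platform 60 min at 770.7.

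Cycling cells were taken as those with at least 3 of 20 cycle genes detected, 10 of S phase (such as Mcm2, Pcna and Rrm2) and 10 of G2/M (such as Mki67, Top2a and Cdk1), none of them a histone gene. In the tumor epithelial gate 649, 675 and 418 cells were cycling in control 60 min, platform 15 min and platform 60 min, and they were deeper than the others, with median UMI counts of 21192, 23098 and 22480 against 7763, 10390 and 8676. The summed histone level of cycling cells was 1.061 (1.039 to 1.084), 1.212 and 1.327 times that of other cells. Each cell was also thinned to 1000 UMIs, which made depth equal, and cycling cells were called again on the thinned counts. The ratios were then 1.824, 2.290 and 2.013, over 133, 103 and 92 cycling cells. These are fewer than the 649, 675 and 418 called at full depth, so the 2 contrasts differ in their cells as well as in depth. Of the 47 members with at least 20 UMIs in each library, 15 were at least 2-fold higher in cycling cells of all 3 libraries, where 3.27% of 13299 genes were, and 0 were at most 0.5-fold, where 0.571% of genes were. The contrast named the members, so these shares are given as a description only.

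The 15 genes were the linker histones Hist1h1b and Hist1h1a, the H2A genes Hist1h2ap, Hist1h2ae and Hist1h2ak, 6 H2B genes, namely Hist2h2bb, Hist1h2bj, Hist1h2bb, Hist1h2bm, Hist1h2bl and Hist1h2bn, and 4 H3 genes, namely Hist1h3c, Hist1h3i, Hist2h3b and Hist1h3g. By family they were 2 of 5 compared H1 members, 3 of 9 H2A, 6 of 14 H2B, 4 of 10 H3 and 0 of 9 H4. In Hist1h2ap, Hist1h2bj, Hist1h2bb, Hist1h3i, Hist2h3b, Hist1h2bl, Hist1h2bn and Hist1h3g at least 50% of the 50-base words occurred in another gene. Their ratios are therefore uncertain as ratios of those loci. Hist1h1b stood at 37.59, 72.20 and 60.79 CPM in cycling and at 2.601, 4.343 and 2.567 in other epithelial cells, ratios of 14.45 (11.90 to 17.68), 16.62 and 23.68. Hist1h2ap stood at 30.67, 71.06 and 86.15 against 2.496, 5.885 and 5.315, ratios of 12.29 (10.04 to 15.14), 12.08 and 16.21. In these 2 genes the cycling cells of every library were above the other cells of every library. Hist1h2ak followed with ratios of 13.21, 12.52 and 19.09 and Hist1h2ae with 6.430, 7.628 and 9.512. The largest ratios were those of the H3 gene Hist1h3c, 30.80 (16.58 to 63.45), 41.97 and 78.23 (29.71 to 292.2), the last over 4 UMIs in the other cells. Cycling cells made up 12.4%, 11.7% and 11.7% of the gate and held 25.2%, 22.6% and 26.2% of its UMIs, but 82.9%, 82.9% and 89.4% of its Hist1h1b UMIs.

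Among the 47 members, 10 had ratios below 1 in all 3 libraries: Hist1h2bc, Hist1h1c, Hist1h4i, Hist3h2a, Hist1h4h, Hist1h2be, Hist4h4, Hist2h4, Hist2h2ac and Hist1h2ad. Hist1h2bc stood at 198.9, 208.5 and 190.1 CPM in cycling cells and 239.0, 253.8 and 243.0 in others, ratios of 0.8322 (0.7999 to 0.8656), 0.8216 and 0.7824. In cells thinned to 1000 UMIs the ratios of Hist1h2bc were 0.4744, 0.5508 and 0.4031, while those of Hist1h2ap were 18.77, 23.85 and 14.22 and those of Hist1h1b 14.08, 44.76 and 14.00. The directions of these 3 genes were thus the same with the fewer cycling cells that were called again at that depth. Hist1h1c had ratios, at full depth, of 0.7970, 0.7875 and 0.7337. Hist3h2a, an H2A gene outside the large clusters, had the lowest ratios of the named members below 1 throughout, 0.5435 (0.4808 to 0.6129), 0.6423 and 0.5781. Hist1h1e and Hist1h4d lay in between, at 1.646 to 1.845 and 1.584 to 1.886. The linker histone family thus held Hist1h1b far above 1, Hist1h1e moderately above it and Hist1h1c below it in the same cells.

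**Figure D4:**
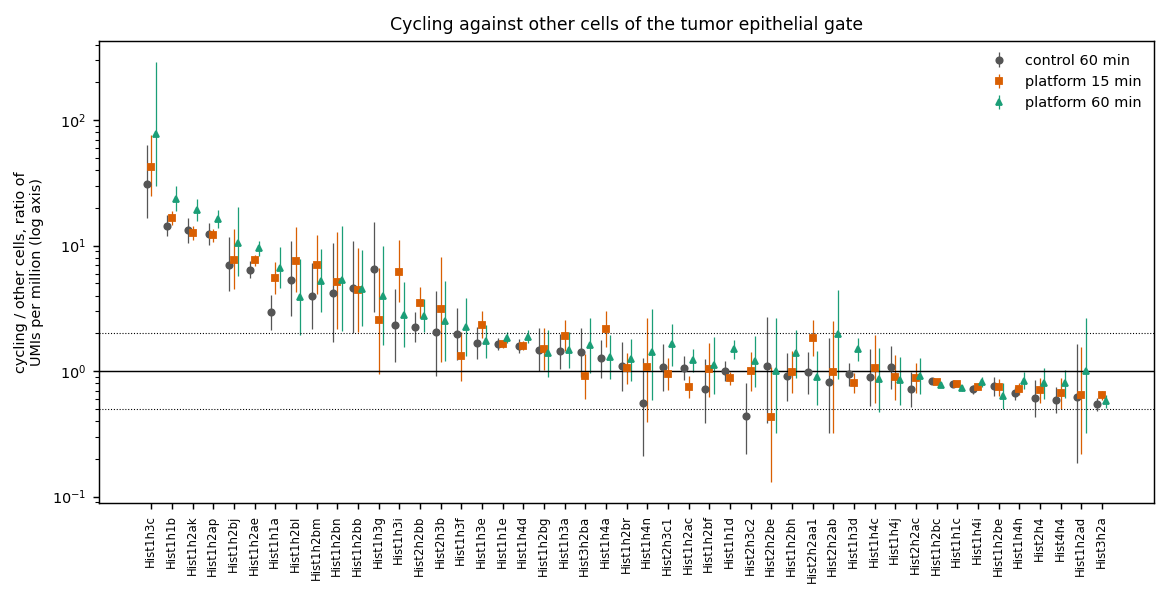
Ratio of the level in cycling cells to that in other cells of the tumor epithelial gate, on a log axis, for the 47 members with at least 20 UMIs in each library, ordered by their median ratio. Points are libraries, bars are 95% conditional binomial intervals, the solid line is 1 and the dotted lines are 2 and 0.5. The 15 genes above 2 in each library are toward the left and Hist3h2a, at 0.5435 to 0.6423, is at the right end.

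Epithelial cells were then split by whether at least 3 S phase genes, at least 3 G2/M genes or both were detected, and the high levels of Hist1h2ap, Hist1h2ae, Hist1h1b, Hist1h2ak and Hist1h3c lay in cells with G2/M genes. Hist1h2ap was at 61.87, 179.6 and 147.8 CPM in cells with both S and G2/M genes and at 38.41, 26.78 and 51.99 in cells with G2/M genes alone. In cells with S genes alone it was at 2.491, 8.847 and 4.083, near the 2.762, 5.231 and 5.244 of cells with no cycle gene detected. The intervals of the last pair of groups overlapped in control 60 min and platform 60 min and not in platform 15 min. Hist1h1b gave the same order, with 79.05, 189.5 and 105.7 CPM in cells with both kinds and 4.151, 6.975 and 2.450 in cells with S genes alone. Hist1h2bc was at 166.8, 118.1 and 162.7 in cells with both kinds and 239.3, 240.0 and 225.1 in cells with no cycle gene. Cells with both kinds were the deepest, with median counts of 29424, 30184 and 29898 UMIs, against 8373, 18391 and 11055 in cells with G2/M genes alone and 5511, 8288 and 6706 in those with no cycle gene. Depth was not equalised for this split, and doublets were not removed.

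**Figure D5:**
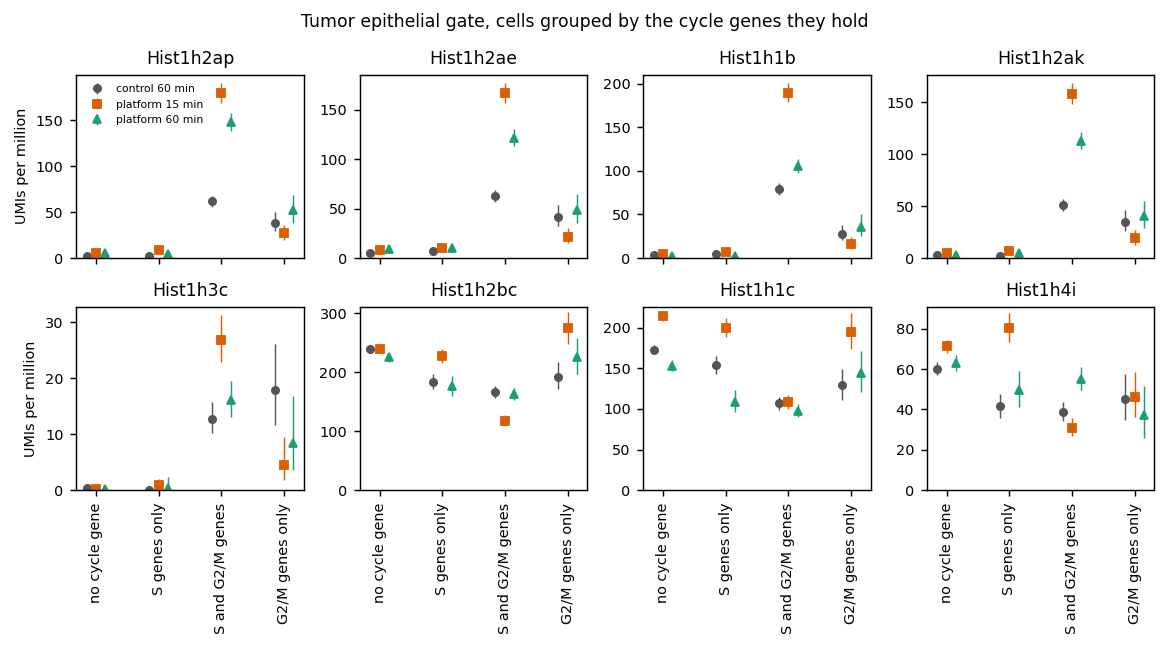
Level of 8 histone genes in tumor epithelial cells grouped by the cycle genes they held, as CPM with 95% Poisson intervals, each panel starting at 0. Hist1h2ap, Hist1h2ae, Hist1h1b and Hist1h2ak are highest in cells with both S and G2/M genes, whereas Hist1h2bc, Hist1h1c and Hist1h4i are not.

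The same 15 genes, chosen on the tumor epithelial cells, were then summed in the other gates with at least 20 cycling cells. In kidney T lymphocytes of platform 60 min, 44 cycling cells held 6206 CPM of them and 450 other cells 126.7, a ratio of 48.99 (43.75 to 55.02). Kidney dendritic cells gave 26.18 (13.52 to 58.08) in control 60 min and 27.84 in platform 60 min, and macrophages 11.54 and 6.346. Proximal tubule cells gave 10.62, 13.82 and 22.76 at low levels, with 15.31, 19.62 and 111.4 CPM in cycling cells. Few proximal tubule cells were called cycling at equal depth, as given below. Tumor endothelial cells, macrophages, T lymphocytes and stromal cells gave 11.78 to 50.90. The exception was kidney endothelial cells, with 58.91 (35.84 to 101.3) in control 60 min but 0.6169 (0.2639 to 1.231) in platform 60 min, where 52 cycling cells held 8 UMIs and 2674 others held 306. In kidney T lymphocytes of platform 60 min, Hist1h2ap stood at 74.14 CPM in other cells and 3805 in cycling cells, and Hist1h2bc at 163.0 and 67.29.

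Over all members with at least 20 UMIs in a gate, the count at least 2-fold higher in cycling cells differed between kidney gates. In T lymphocytes of platform 60 min it was 26 of 32 members, against 9.75% of all genes compared. Dendritic cells gave 5 of 9 in control 60 min (5.95% of genes) and 13 of 17 in platform 60 min (8.31%). Macrophages gave 7 of 20 (6.69%) and 11 of 33 (7.9%) in those libraries. Proximal tubule cells gave 2 of 19 in control 60 min (5.11%), 10 of 30 in platform 15 min (8.28%) and 11 of 33 in platform 60 min (7.52%). Endothelial cells gave 9 of 16 in control 60 min (7.11%) and 2 of 24 in platform 60 min (9.17%). A member can pass the minimum of 20 UMIs through its cycling cells alone, so these shares are a description only.

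Sequence features of the annotated transcripts were set beside these ratios. Of members whose transcript ended within 100 bases of the stem-loop, 5 of 12 compared were among the 15, of those running further 1 of 21 (Hist1h2ae), and of those without annotated stem-loop letters 9 of 14. In the last class 6 of the 7 compared members with at most 5 annotated bases from the stop codon on were among the 15. A poly(A) signal, AATAAA or ATTAAA, lay in the last 50 bases of the annotated transcript in 16 members. Of these, 1 of 14 compared was among the 15. It was not found there in 47 members, of which 14 of 33 compared were among the 15. The 47 include the 12 members with at most 5 annotated bases from the stop codon on, where sequence past the coding end was not searched. CCAAT lay before 15 of 15 of these genes and before 20 of the 27 other compared members with a promoter. H4 supplied no gene to the 15 and held CCAAT in few promoters, so family and motif cannot be told apart here. The genes of 10 pairs lay head to head, 176 to 660 bases apart, among them Hist1h2bn and Hist1h2ak, 296 bases apart with ratios of 4.161 to 5.286 and 12.52 to 19.09. Of the 50-base words of Hist1h2bn 98.8% also occurred in another gene, and of those of Hist1h2ak 46.2%. Both ratios are therefore uncertain as ratios of those loci. Hist1h2bc and Hist1h2ac, 251 bases apart, had ratios of 0.7824 to 0.8322 and 0.7446 to 1.220.

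Of the genes that act with histones, lists were fixed for replication-independent variants, for transcription and 3′ processing of histone mRNA, and for chaperones. In the tumor epithelial gate, where 3.27% of all genes compared were at least 2-fold higher in cycling cells of all 3 libraries, 4 of 11 variants were, with a median ratio of 1.698 over the list. They were H2afz, at 3.501, 3.187 and 4.050, H2afx, which is phosphorylated at DNA breaks, at 2.451 to 3.660, H1fx at 4.617 to 7.550 and the centromeric H3 variant Cenpa at 13.93 to 18.64. Of 12 transcription and processing genes 1 was, with a median of 1.454 over the list. It was Zfp473, a zinc finger protein of the processing complex, at 5.716 (2.816 to 12.17), 5.322 (2.146 to 13.94) and 6.265 (2.727 to 15.62). These ratios rest on 25, 14 and 20 UMIs in cycling cells and 13, 9 and 9 in other cells. Slbp, the stem-loop-binding protein, had ratios of 1.167, 1.5 and 1.388, and Npat, the transcriptional coactivator of histone clusters, 1.232, 1.143 and 1.335. Of 12 chaperones 4 were, namely Asf1b at 9.471 to 15.44, the chromatin assembly factor subunits Chaf1a at 11.28 to 15.69 and Chaf1b at 10.89 to 11.92, and the acetyltransferase Hat1 at 2.437 to 3.256, with a median of 1.769. In the 3 lists 0 genes were at most 0.5-fold in all 3 libraries, where 0.571% of all genes were.

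Shallow cells, the 25% of a library with the lowest UMI counts, were set against deep cells, the 25% with the highest. In kidney their median depth was 2226, 3639 and 2185 UMIs against 17348, 17546 and 16590. The summed histone level was 0.7399 (0.7157 to 0.7648), 0.9125 and 0.8353 times as high in shallow cells of kidney, and 1.146, 1.183 and 1.434 times without Hist1h2bc. Shallow kidney cells held fewer proximal tubule cells, 35.5%, 68.5% and 20% against 78.8%, 96.4% and 69.2%, and within that gate the ratio without Hist1h2bc was 0.7399, 0.7739 and 0.7104. The direction without Hist1h2bc thus changed when cells of the proximal tubule gate alone were compared. Within the gate mitochondrial UMIs were 2.122, 1.567 and 1.868 times as high in shallow cells, and Malat1, a nuclear RNA, was 0.1381, 0.04918 and 0.2728 times as high.

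In the tumor the 3 libraries went different ways. The sum in shallow cells was 1.388 (1.339 to 1.438) times that of deep cells in control 60 min, 0.6 (0.5803 to 0.6203) in platform 15 min and 0.9806 in platform 60 min. Within the epithelial gate the ratios were 1.297, 0.6154 and 1.025. With the cell limits of the study, which remove cells with over 3000 genes in kidney and 4000 in tumor, the sums turned to 1.009 and 1.074 in kidney platform 15 min and platform 60 min and to 1.216 in tumor platform 60 min. Shallow epithelial cells held 3.52%, 2.21% and 2.24% cycling cells against 30.2%, 32.3% and 32.3% of deep cells. Mitochondrial UMIs were 3.057, 2.596 and 2.953 times as high in shallow epithelial cells of the 3 libraries, and Malat1 3.083, 2.172 and 2.869 times. Both were highest in control 60 min and lowest in platform 15 min, as was the histone ratio, and their part in it was not tested.

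By gene, 4 of 30 kidney members were at least 2-fold higher in shallow cells of all 3 libraries (12.6% of all genes compared were), namely Hist1h1d, Hist2h4, Hist3h2ba and Hist2h2bb, and 0 were at most 0.5-fold (1.41%). In the proximal tubule gate 0 of 16 were higher (0.0179%) and Hist1h2ac and Hist4h4 were lower (1.85%). In the tumor 2 of 45 were higher (4.63%), the H4 genes Hist4h4, at 13.10, 2.164 and 5.435, and Hist1h4c, at 11.58, 2.137 and 4.869, and 0 were lower (2.71%). The epithelial gate gave the same 2 genes of 39 (2.95%), and 0 lower (2.32%). Hist1h2ap was lower in shallow tumor cells at 0.7056, 0.2213 and 0.2831, as was Hist1h1b at 0.5402, 0.1464 and 0.2396. Hist1h2bc was at 1.004, 0.5181 and 0.7570 in tumor and at 0.5781, 0.8104 and 0.4309 in kidney.

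Each platform library was compared with the control digestion of its tissue, which both comparisons share. The summed level in kidney was 0.8378 (0.8299 to 0.8458) times the control in platform 15 min and 0.9197 in platform 60 min, which became 1.352 without Hist1h2bc, and in the proximal tubule gate 0.7289 (0.7214 to 0.7366) and 0.8841. In tumor it was 1.335 (1.321 to 1.350) and 0.9132, and in the epithelial gate 1.266 and 1.114 (1.098 to 1.129). The tumor platform 60 min library thus lay below the control over all cells and above it within the epithelial gate, which held 44.8% of its cells against 66.1% of control cells.

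Over all kidney cells, 26 of 46 members were at most 0.5-fold in platform 15 min, where 21.7% of genes were, and 0 were at least 2-fold (2.41%). In platform 60 min 19 of 56 were at least 2-fold, where 8.66% of genes were, and 0 were at most 0.5-fold (0.896%). The share of proximal tubule cells in these libraries was 86.7% and 36.3% against 52.5% in the control. Within the proximal tubule gate platform 15 min gave 4 of 33 higher (2.87%) and 1 lower (3.18%), and platform 60 min 15 of 34 higher (11.4%) and 1 lower (0.476%). The member lower in both was Hist1h2ac, an H2A gene, at 0.3616 and 0.4627 times the control. In that gate Hist1h2bc was at 0.6998 in platform 15 min and 0.8206 in platform 60 min, Hist1h1c at 0.8172 and 0.8744, and Hist1h4i at 0.7346 and 1.023.

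The higher members of platform 60 min in the proximal tubule gate included genes of the cycling set. Hist1h2ap was at 14.80 times and Hist1h1b at 7.202 times the control there, from 0.3560 to 5.269 CPM for Hist1h2ap. Of the 310 Hist1h2ap UMIs in this gate 244 lay in the 156 cells called cycling, and the gate was 3.19% cycling against 2.68% in the control. These calls were made at full depth. After thinning to 1000 UMIs, 3, 10 and 3 cells were called cycling in control, platform 15 min and platform 60 min. At full depth 111, 164 and 156 were, so a cycling tubule population is not established here. The 15 genes together had 40 UMIs in cycling and 61 in other control cells. The ratios of 14.80 and 7.202 thus rest on few control UMIs. Other higher members of platform 60 min were not in the cycling set: Hist2h2aa1 was at 3.111 times, Hist2h4 at 2.382, Hist3h2ba at 2.292 and Hist1h1d at 2.251 times the control.

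In tumor, platform 15 min gave 4 of 60 members higher over all cells (3.04%) and 1 lower (3.3%), and platform 60 min 3 higher (11.1%) and 1 lower (2.81%). Within the epithelial gate 7 of 59 were higher (3.54%) and 2 lower (3.19%) in platform 15 min, and 5 higher (3.54%) and 2 lower (2.22%) in platform 60 min. Hist1h2ap and Hist1h2ak were higher in both platform libraries of the epithelial gate, at 2.151 and 2.762 times and at 2.235 and 2.512 times the control. The cycling share of that gate was 12.4% in control, 11.7% in platform 15 min and 11.7% in platform 60 min. Within cycling epithelial cells Hist1h2ap was at 30.67 CPM in the control and at 71.06 and 86.15 in the platform libraries, and within other epithelial cells at 2.496, 5.885 and 5.315. Hist1h2bc was between 1.001 and 1.064 times the control in the epithelial gate, and Hist1h1c was at 1.265 and 0.8801.

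Across types, macrophages were above the control in both platform libraries of both tissues, with summed ratios of 1.306 (1.198 to 1.423) and 1.780 (1.708 to 1.855) in kidney and 1.625 and 1.342 in tumor. Kidney T lymphocytes were at 0.4534 (0.4066 to 0.5048) in platform 15 min and at 1.818 in platform 60 min. In platform 60 min the 44 cycling cells of the 494 held 4960 of the 7182 histone UMIs (69.1%). Cycling cells made up 5.73%, 11.2% and 8.91% of this gate in control 60 min, platform 15 min and platform 60 min. These were 11 of 192, 14 of 125 and 44 of 494 cells, and the part of cycling cells in the T lymphocyte ratios was not tested. Dendritic cells of platform 60 min were at 2.179 (2.006 to 2.369) in kidney and 2.019 (1.538 to 2.691) in tumor, the latter over 61 UMIs in the control. In the kidney library the 54 cycling dendritic cells of 189 held 2535 of 3141 histone UMIs (80.7%), and in the control 31 of 87 held 490 of 695 (70.5%). A deep cell holds more UMIs of every gene, and the share of all UMIs in these cycling T lymphocytes and dendritic cells is not given here. The percentages therefore do not measure an excess over other cells. Thick ascending limb and distal convoluted tubule cells of platform 60 min were at 0.7275 and 0.5979. In kidney macrophages, Hist1h1c was at 74.81 CPM in control 60 min, 151.9 in platform 15 min and 157.4 in platform 60 min, and Hist1h1e at 31.37, 61.89 and 66.96, so both linker histone genes were at similar levels in the 2 platform libraries. The macrophage gate of platform 15 min in kidney held 158 cells and 10747 CPM of Kap and Miox. In control 60 min and platform 60 min this gate held 2801 and 2475 CPM of them. The part of free RNA in these ratios was not tested.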

How the data were processed

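Droplet 3′ libraries were sequenced by the authors, who aligned reads with Cell Ranger 3.1.0 (per the submitters' processing notes) to mm10 and equalised depth across the 3 libraries of each tissue, separately for kidney and tumor. The deposited values are raw UMI counts per gene and cell. The library of a cell was read from its barcode suffix through the deposited aggregation tables. Cells with at least 200 genes were kept, and no doublet caller was run. A cell took the type with the most of its 5 markers detected, at least 2, and ties stayed unassigned. Counts were summed per library and type and given per 1000000 UMIs (Python 3.11.15, numpy 2.4.6, scipy 1.17.1, pandas 2.3.3). With 1 library per group no test was run: a 2-fold ratio, with at least 20 UMIs over both sides, was called by size, and 95% intervals are exact Poisson or exact conditional binomial. The interval code was tested on simulated data. The 25 members with the most UMIs were named. The members, gene lists and contrasts were chosen with earlier results of these data known. Sequences were read from GRCm38 with GENCODE M21 and RefSeq. Alternatives covered cell limits, gates, weighting, thinning and depth groups.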

Additional observations from a re-analysis of the deposited data

Results flagged for a closer look

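Some results are listed because the libraries of kidney all lay on one side of 1 and those of tumor all on the other. None of these differences was tested. Hist1h1c was at 1.023, 1.011 and 1.221 times in shallow against deep kidney cells of control 60 min, platform 15 min and platform 60 min, and at 0.6798, 0.4971 and 0.7552 in the tumor. Within the proximal tubule gate Hist1h1c was at 0.7855, 0.8915 and 0.8239, on the same side of 1 as the tumor. Hist1h2ak was at 2.233, 5.543 and 3.383 times in kidney, the ratio of platform 15 min over 2 UMIs in shallow and 2 in deep cells, and at 0.9131, 0.1958 and 0.2577 in tumor, where the epithelial gate of control 60 min gave 1.092.

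For the comparison of platform 15 min and platform 60 min with the control in the most populous gate, the summed level was at 0.7289 and 0.8841 in kidney proximal tubule cells and at 1.266 and 1.114 in tumor epithelial cells. Hist3h2a was at 0.7599 and 0.9060 in kidney and 1.632 and 1.384 in tumor, and Hist1h2ac at 0.3616 and 0.4627 in kidney and 1.299 and 1.491 in tumor. Hist2h3c1 was at 0.7085 and 0.6875 in kidney and 2.029 and 1.469 in tumor. Both ratios of a tissue share its control library.

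Cells with fewer than 200 detected genes entered no comparison, and histone UMIs were counted in them too. The 1146 such kidney barcodes held 27.13 histone UMIs per 1000000 (22.64 to 32.26) with 96.8% mitochondrial UMIs, and the 615 tumor barcodes held 91.28 with 87.3% mitochondrial UMIs.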

How the results depend on the processing

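Values follow the order control 60 min, platform 15 min and platform 60 min, or the platform libraries alone for ratios to the control. All interval, shallow and cycling values here are ratios of the summed histone level unless a gene is named, and the cause of a change was not tested. No paired analysis was possible because each condition of a tissue has 1 library, so no library could be left out either.

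With at least 500 genes per cell the kidney level was 1083 in control and 994.7 in platform 60 min, and the kidney platform 15 min ratio 0.8290. With the cell limits of the study the levels were 936.1 (control) and 869.8 (platform 60 min) in kidney and 554.1, 705.0 and 455.2 in tumor, the ratios to the control 0.9535 and 0.9291 in kidney and 1.272 and 0.8215 in tumor, the cycling ratios 1.362, 1.083 and 1.272, and the shallow against deep ratios 0.9830, 1.009 and 1.074 in kidney and 1.810, 0.7065 and 1.216 in tumor. Under these limits Hist1h1d turned to 0.8137 in kidney control, Hist1h4c to 1.524 in kidney platform 15 min and Hist1h2ae to 1.007 in tumor platform 60 min, all shallow against deep.

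Averaging over cells gave levels of 969.3, 881.3 and 919.2 in kidney and 642.2, 696.3 and 528.5 in tumor, ratios to the control of 0.9093 and 0.9483 in kidney and 1.084 and 0.8229 in tumor, and cycling ratios of 1.223, 1.258 and 1.490, and Hist2h3c2 turned to 1.232 in cycling cells of the tumor control. Without Hist1h2bc the levels were 340.8, 247.1 and 460.7 in kidney and 412.3, 585.3 and 402.3 in tumor, the ratios to the control 0.7249 and 1.352 in kidney and 1.419 and 0.9757 in tumor, and the cycling ratios 1.183, 1.379 and 1.606. Cells thinned to 1000 UMIs gave ratios to the control of 0.9112 and 0.9324 in kidney and 1.084 and 0.8110 in tumor. With cycling cells called again on the thinned counts, the cycling ratios were 1.824, 2.290 and 2.013.

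Cycling ratios were 1.096, 1.358 and 1.548 with at least 5 cycle genes, 1.250, 1.571 and 1.635 with G2/M genes alone, and 1.238, 1.696 and 1.658 with at least 3 genes of each phase, the last an alternative chosen after seeing the data. So were leaving out cells with shared barcodes, which kept the sums within counting error, and, for the cycling ratio, leaving out Hist1h2bc. Shallow against deep ratios were 0.7933 and 0.9787 in kidney control and platform 15 min and 1.632, 0.6751 and 1.123 in tumor over non-mitochondrial UMIs, and 0.9353 in kidney platform 15 min and 1.148, 0.6676 and 0.9131 in tumor with cells split at the median.

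Within the proximal tubule and epithelial gates the ratios to the control were 0.7289 and 0.8841 in kidney and 1.266 and 1.114 in tumor, and the shallow against deep ratios 0.9508 and 0.7471 in kidney platform 15 min and 60 min and 1.297 and 1.025 in tumor control and platform 60 min. Against the control in kidney platform 15 min, genes below 1 over all cells turned within the proximal tubule to 1.033 (Hist1h2ap), 1.339 (Hist1h1d), 1.307 (Hist1h3e) and 1.696 (Hist2h2bb). Genes higher in shallow kidney cells turned there to 0.7295 (Hist1h4d), 0.2737 (Hist1h2ap), 0.3285 (Hist1h2ae and Hist2h2bb), 0.2968 (Hist1h2be), 0.1589 (Hist2h4) and 0.2464 (Hist1h3e) in platform 15 min, to 0.7226 (Hist1h1e), 0.8464 (Hist1h1d), 0.7348 (Hist1h2be), 0.4488 (Hist1h2ac), 0.4740 (Hist4h4) and 0.7181 (Hist2h2bb) in platform 60 min and to 0.4502 (Hist4h4) and 0.4924 (Hist3h2ba) in control. The count of members, and the summed level in these gates, did not move beyond counting error or 1.5 times under the alternatives run for them. For single named genes, changes of side of 1 numbered 67 of 507 for cycling, 80 of 600 for the control comparison and 84 of 740 for depth.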
